A study of Mus musculus with 13 samples.

Results

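The genes described here are the MHC class II genes H2-Ab1, H2-Aa and H2-Eb1, the invariant chain Cd74, the peptide exchange genes H2-DMa and H2-DMb1, and their regulator Ciita. These 7 genes of 17282 were named by a rule that had earlier results of the same data in view. In the GENCODE M21 annotation of GRCm38, H2-DMa (34119541 to 34139101), H2-DMb1 (34153072 to 34160230), H2-Ab1 (34257689 to 34269419) and H2-Eb1 (34305867 to 34316674) lie on the plus strand of chromosome 17, and H2-Aa (34282744 to 34287823) lies on its minus strand. Ciita lies on chromosome 16 (10480059 to 10528418, plus strand) and Cd74 on chromosome 18 (60803848 to 60812652, plus strand). The cells were hypothalamic microglia of male C57BL/6J mice, sorted singly as CD45lo CD11b+ and sequenced by CEL-Seq2, a plate method that counts molecules by UMIs, the random tags put on each transcript. The mice had control chow or HFD for 1d, 3d, 7d, 1w, 4w, 9w or 16w (d, days; w, weeks), with no transgene or other treatment named. A cell was a well with at least 1500 transcripts, which left 1617 of 2496 wells. Class II cells were those in which Cd74, H2-Aa, H2-Eb1 and H2-Ab1 summed to 5 or more UMIs (33 cells on plates 4 and 5, 8 on the other 11 plates), and all other cells served for comparison (164 and 1412).

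MHC class II molecules are pairs of an alpha and a beta chain that show peptides from engulfed protein to CD4 T cells. H2-Aa and H2-Ab1 encode the 2 chains of I-A, the surface class II molecule of C57BL/6 mice, while H2-Eb1 encodes the beta chain of I-E, which lacks its alpha chain in this strain. Cd74 escorts the new pairs to the endosome, where H2-DM, made of H2-DMa and H2-DMb1, swaps its remnant for peptide. CIITA switches the genes on by joining factors that sit on the X and Y boxes before their start sites. Dendritic cells, B cells and many macrophages carry class II molecules at rest, whereas homeostatic microglia are known for little or none.

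The RefSeq promoters of GRCm38.p6 (from 250 bases before the start to 50 after it) hold these boxes in the same order and at nearly the same distance in 2 of the genes that made the classes, which is why they are shown. Capitals mark the letters GNAAC of the X box and TGATTGG of the Y box, which were chosen after these sequences had been read. The H2-Aa stretch is chr17:34287857-34287914 on the minus strand, with the Y letters starting 50 bases and the X letters 81 bases before the start. The H2-Eb1 stretch is chr17:34305766-34305822 on the plus strand, with distances of 61 and 91 bases.
H2-Aa: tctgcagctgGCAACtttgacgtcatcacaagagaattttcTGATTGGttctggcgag
H2-Eb1: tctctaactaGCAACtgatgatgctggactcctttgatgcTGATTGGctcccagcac
The X letters preceded the Y letters by 31 and 30 bases. H2-DMb1 also had both (63 and 94 bases before the start), and so did H2-Oa, H2-Ob and H2-Eb2, which are class II genes outside the 7. H2-DMa had no Y letters in its 2 promoter entries. TGATTGG occurred on either strand in 7.82% of 32851 promoters, and GNAAC lay 12 to 35 bases before it, on either strand, in 0.688%. A match of letters is a description and shows no binding. H2-DMb2, also outside the 7, had the Y letters alone. H2-Ab1 and Ciita had no entry, and Cd74 was not searched.

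The series was uneven by plate in ways that touch these genes. Cells per plate numbered 79 to 165, and median transcripts per cell ran from 2188 to 4676 on plates other than 4 and 5, against 4591 on plate 4 and 4111 on plate 5. The class II cells of plates 4 and 5 had a median of 6069 transcripts and the others there 4320. All plates used the same 192 barcodes, and on plates 4 and 5 each of the 192 barcodes held cells of the same replicate identifier. Microglial markers fitted the labelled cell type outside the highest class II cells, with P2ry12, a purinergic receptor of microglia, in 163 of 164 cells under 5 class II UMIs on plates 4 and 5. Ciita was absent from the gene lists of plates 1 to 3, so its values come from the other 10 plates. An identifier need not be 1 mouse, so every p-value below measures the spread between these sums of cells, which may be technical. The threshold of 5 UMIs selected the cells on 4 genes, whose levels are therefore given without a test.

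Class II cells made up 16.8% of the cells of plates 4 and 5 (33 of 197, exact 95% binomial interval 11.8 to 22.7%, for counting error only) and 0.563% elsewhere (8 cells of 1420, interval 0.244 to 1.11%). The share was 19.5% on plate 4 (23 of 118) and 12.7% on plate 5 (10 of 79), and no other plate went above 1.90%. The UMIs of the 4 genes did not fall into a smooth range. Of the 197 cells, 34 had 0, 51 had 1, 32 had 2, 33 had 3, 14 had 4 and 18 had 5 to 7, and none had 8 to 13. Another 5 cells held 14 to 48 UMIs, none held 49 to 77, and 10 held 78 to 1546. The members just outside and just inside the threshold thus belonged to a continuous run, with 14 cells at 4 UMIs and 18 at 5 to 7. When every cell was thinned to 1500 UMIs, 10 cells kept 49 or more and only 4 others reached 5. For this reason cells with at least 50 UMIs (10 on plates 4 and 5, 5.08% of cells; 5 on the other plates, 0.352%) are also described apart from those with 5 to 49 (23 and 3), a split made after the gap was seen.

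**Figure D1:**
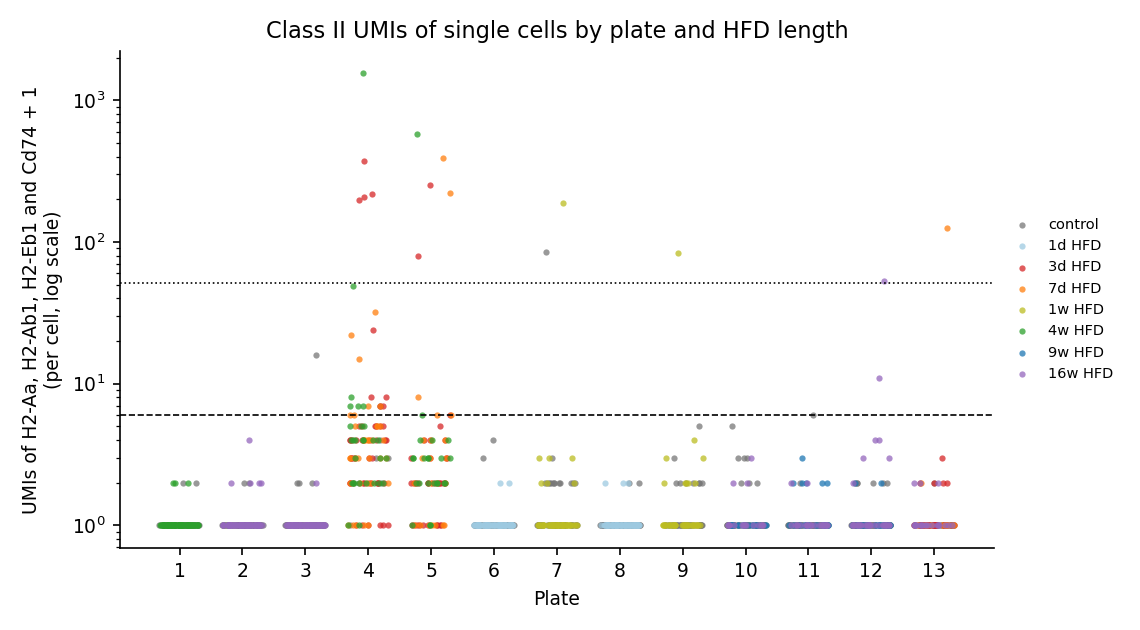
Summed UMIs of Cd74, H2-Aa, H2-Eb1 and H2-Ab1 plus 1 (log axis) in each cell with at least 1500 transcripts, by plate and coloured by HFD length. The dashed line marks 5 UMIs and the dotted line 50 UMIs; plates 4 and 5 hold 33 of the 41 cells at or above the dashed line and 10 of the 15 above the dotted line.

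Low counts of these genes were also spread over most cells of plates 4 and 5. At least 1 UMI of the 4 was found in 82.7% of the cells there and in 2.65 to 20% on the other plates. Cells with fewer than 5 UMIs still carried 384 CPM of the 4 genes there (CPM, counts scaled to a common total and not by gene length, since CEL-Seq2 reads 3′ ends) against 32.0 on the other plates, where the single plates ran from 9.67 to 97.4. By replicate identifier the level in those cells stood within 341 to 420 CPM on plates 4 and 5 for all 7 identifiers and all 4 diets. Wells too shallow to count as cells carried 2176 CPM on plate 4 and 3750 on plate 5. Whether free RNA or reads passed between wells contributed was not tested. The composition of the UMIs is given as a description, since these genes made the groups. In the 10 highest cells, Cd74 gave 34.0% of the 4 genes' UMIs (22.4 to 48.8% in single cells), of which the well with 1546 held 536 of 1379, H2-Aa 24.4%, H2-Ab1 23.2% and H2-Eb1 18.4%. In cells under 5 UMIs on the same plates, Cd74 gave 13.7%, H2-Aa 20.7%, H2-Ab1 34.4% and H2-Eb1 31.1%.

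Replicates on plates 4 and 5 differed more than the diets did. M23 (7d HFD) had 12 class II cells of 31 (38.7%), while M22, on the same diet and plates, had 0 of 26. M24 (3d HFD) had 10 of 40 (25%), and M25 (3d HFD) had 2 of 41 (4.88%). M20 (4w HFD) had 3 of 25 (12%), M21 (4w HFD) 5 of 27 (18.5%), and M26, the control there, 1 of 7 (14.3%). The identifiers with the higher shares thus came from 3d, 7d and 4w HFD, each beside an identifier of the same diet with a lower share. By diet the shares were 14.3% in control, 14.8% in 3d HFD (12 of 81), 21.1% in 7d HFD (12 of 57) and 15.4% in 4w HFD (8 of 52), all within 1 SD over the identifiers (16.2 ± 12.9%, SD, n = 7). The same diets on other plates gave 0 of 40 cells in 3d HFD, which allows up to 7.5%, 1 of 16 in 7d HFD and 0 of 76 in 4w HFD, which allows up to 3.95%. There, 1d HFD (0 of 161, which allows up to 1.86%), 1w HFD (2 of 99), 9w HFD (0 of 82, up to 3.66%), 16w HFD (2 of 231) and control (3 of 715) also stayed low. Over the 37 identifiers with at least 5 cells on those plates the share was 0.604 ± 1.67% (SD).

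Each of the 4 genes stood higher on plates 4 and 5 than on any other plate. H2-Aa was at 1233 CPM over plates 4 and 5 and at 0 to 258 CPM on the others, with a UMI in 37.1% and 1.34% of cells. H2-Ab1 was at 1222 CPM against 0 to 212, in 50.8% and 3.17% of cells, and H2-Eb1 at 992 against 0 to 230, in 47.7% and 1.34%. Cd74 was at 1635 CPM against 7.23 to 337, in 29.9% and 4.08% of cells. The other members differed less between plates. Ciita was at 35.9 CPM over plates 4 and 5 and at 0 to 10.8 on the others, H2-DMa at 259 against 133 to 220, and H2-DMb1 at 133 against 50.2 to 118. Plates 7 and 9, which followed with 1037 and 414 CPM of the 4 genes, held 3 of the 5 high cells outside plates 4 and 5.

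By diet, no order of levels held across the plates. On plates 4 and 5 the 4 genes together averaged 9075 ± 6058 CPM in 4w HFD, 4543 ± 5813 in 3d HFD and 2284 ± 2741 in 7d HFD (SD over identifiers, n = 2 each), and stood at 503 in the single control identifier. The spread within each diet covers the differences between neighbours in this order. On the other plates the mean was 65.2 ± 166 CPM in control (SD, n = 18), 13.3 ± 6.94 in 1d HFD (n = 6), 43.0 ± 15.9 in 3d HFD (n = 2), 1051 ± 404 in 1w HFD (n = 2), 4058 in the single 7d HFD identifier with at least 5 cells, 28.6 ± 11.8 in 9w HFD (n = 2) and 127 ± 220 in 16w HFD (n = 5). The 1w HFD value rests on 2 class II cells and that of 7d HFD, the highest there, on 1, and 4w HFD, highest on plates 4 and 5, stood at 15.4 CPM there in 1 identifier. H2-DMa ranged over the diets from 217 to 296 CPM on plates 4 and 5 and from 149 to 226 on the others, and H2-DMb1 from 67.0 to 167 and from 66.9 to 149.

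Summed levels followed the few highest cells. The 4 genes together stood at 13358 CPM in M20, 8653 in M24, 4792 in M21 and 4222 in M23, each with at least 1 cell above 50 UMIs. They stood at 503 CPM in M26, 433 in M25 and 346 in M22, which had no such cell. A single well of M20 held 1546 of the UMIs.

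The highest wells came with raised counts under the same barcode of the partner plate. Wells with at least 50 UMIs on plate 4 or 5 covered 9 barcodes, and at all 9 the well with the same barcode on the other of those plates held UMIs of the 4 genes, at least 5 of them at 8 barcodes. The lower well held 32 beside 1546, 48 beside 577, 31 beside 390, 7 beside 370, 23 beside 252, 14 beside 222, 4 beside 207, 5 beside 196 and 78 beside 216 UMIs. That is 1.89 to 9.13% of the higher well, apart from the last at 36.1%. Under the same barcodes on the other 11 plates no well went above 1 UMI. Of the 5 cells with 14 to 48 UMIs, 4 were such lower wells, and of the 18 cells with 5 to 7 UMIs, 1 was. The remaining 18 cells with 5 to 49 UMIs were in no such pair. Other genes were looked at in the same way, taking genes with at least 50 UMIs in a well of plate 4 and a median of 0 on plate 5. Of 16 such gene and well combinations, 14 (87.5%) had a UMI under the same barcode on plate 5, against 41.4% over all its wells, while plate 4 against plate 13 gave 3 of 13 (23.1% against 18.8%). Plate 5 gave 1 of 1 against plate 4 and 2 of 8 against plate 13. Of the other pairs looked at, plate 2 against 3 and plate 10 against 11 gave 1 of 1 each. Plate 3 against 2 gave 0 of 4, and plate 9 against 10 gave 2 of 8.

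**Figure D2:**
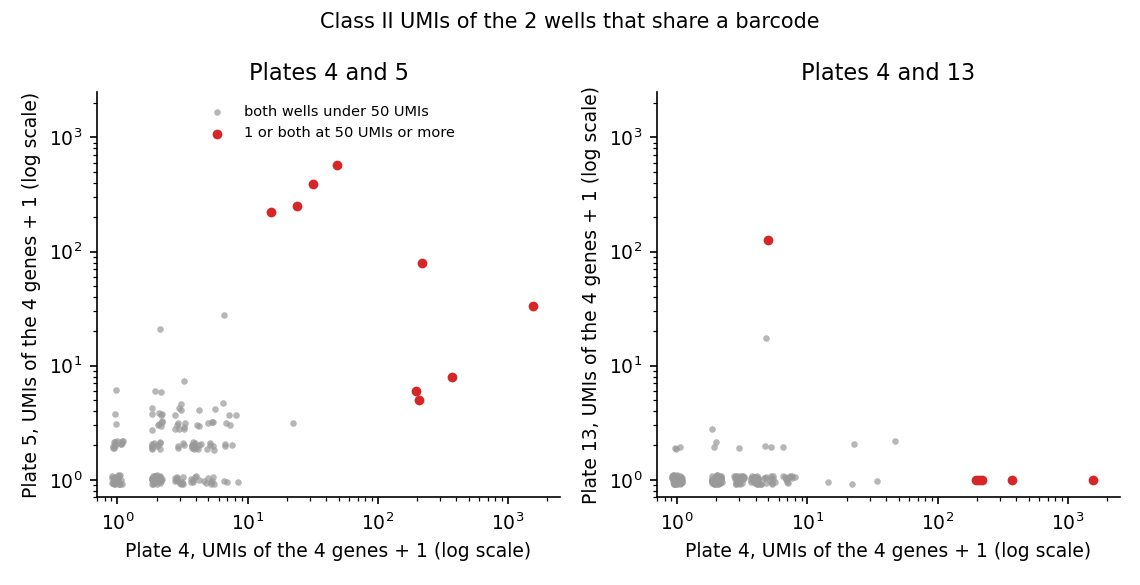
Each point is a barcode, with the UMIs of the 4 genes plus 1 in its well on plate 4 (x, log axis) and in its well on plate 5 or 13 (y, log axis), for all 192 barcodes; points under 50 UMIs are jittered. Barcodes with at least 50 UMIs on plate 4 lie at 4 to 78 UMIs on plate 5 and at 0 on plate 13.

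Ciita was found mainly in the highest cells. A Ciita UMI was found in 8 of the 10 cells with at least 50 class II UMIs on plates 4 and 5 (0 to 11 UMIs, median 1.5), in 1 of 23 with 5 to 49 and in 2 of 164 with fewer than 5. All 11 cells with Ciita also had H2-Aa, H2-Eb1 and H2-DMa, and 10 of them had H2-DMb1. On plates 6 to 13, Ciita was seen in 1 of 5 cells with at least 50 UMIs and in 11 of 991 under 5, a share of 1.11% against 1.22% on plates 4 and 5. H2-DMa and H2-DMb1 were less selective. H2-DMa had a UMI in 10 of 10, 18 of 23 and 88 of 164 cells of the 3 groups, and H2-DMb1 in 10 of 10, 15 of 23 and 45 of 164. On the other plates, cells under 5 class II UMIs had H2-DMa in 35.3% and H2-DMb1 in 20.3%, at a median of 2736 transcripts against 4320. Most cells of plates 4 and 5 with H2-DM transcripts therefore lay outside the class II cells.

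The genes rose and fell together over cells mainly through the highest ones. Over the 197 cells of plates 4 and 5, thinned to 1500 UMIs, Pearson's r between pairs of the 4 genes was 0.85 to 0.91 and Spearman's rho 0.25 to 0.44. The same pairs on the other plates with a Ciita value (998 cells) had r of 0.80 to 0.93. Pairs of Ciita, H2-DMa or H2-DMb1 with 1 of the 4 had r of 0.36 to 0.55 on plates 4 and 5 and of -0.01 to 0.20 elsewhere. The cells share plates and depth, so these are descriptions. Among 5215 genes with a UMI in at least 5% of the cells, those most like the sum of the 4 were Axl (r = 0.56), a receptor for the uptake of dying cells, Mrc1 (0.52), the mannose receptor of border macrophages, H2-DMb1 (0.52), Fxyd5 (0.48) and Tgfbi (0.46). Without the 10 highest cells the 5 values dropped to 0.01 to 0.07 over 187 cells.

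Whether the 3 remaining members differed between class II and other cells was tested on sums per replicate identifier, with the 4 genes that made the classes left out of the totals. The 5 identifiers with at least 2 cells of each class on plates 4 and 5 entered (M20, M21, M23, M24 and M25). H2-DMb1 in class II cells was at 512 CPM in M20, 375 in M21, 132 in M23, 466 in M24 and 77.9 in M25, against 119, 61.2, 79.2, 66.8 and 124 in other cells. It was higher in 4 of 5 identifiers, and the ranges overlap because of M25. H2-DMb1 has a close copy, H2-DMb2, and how the counting divided reads between them is not given. Its log2 fold change by edgeR was 1.90 (SE 0.40). That is a description, since 4 class II sums but only 2 of the other sums reached the level of the filter on low counts, and without the filter it was not called (1.46, edgeR adjusted p = 0.402). The exact two-sided sign-flip test on CPM, whose smallest p with 5 pairs is 0.0625, gave p = 0.125 for 312 ± 197 against 89.9 ± 29.3 CPM (SD, n = 5).

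H2-DMa was at 736, 579, 253, 512 and 234 CPM in class II cells of the same identifiers and at 205, 183, 249, 259 and 202 in other cells. It was higher in 5 of 5, by as little as 3.86 CPM in M23. The exact sign-flip test gave p = 0.0625 for 463 ± 216 against 220 ± 32.5 CPM (SD, n = 5), the smallest it allows, and by edgeR the log2 fold change of 1.10 (SE 0.35) missed the threshold with an adjusted p of 0.0734. Ciita was at 352, 102, 98.9, 163 and 0 CPM in class II cells, and in other cells it was at 10.8 CPM in M20 and at 0 in the rest. It was too low for the edgeR filter, and the exact sign-flip test gave p = 0.125 (143 ± 130 against 2.15 ± 4.82 CPM, SD, n = 5). M25, the identifier without a cell above 50 UMIs, showed no increase in Ciita or H2-DMb1. In cells with 5 to 49 UMIs alone, the differences were 14.8 ± 39.4 CPM for Ciita (exact sign-flip p = 1), 66.6 ± 138 for H2-DMa (p = 0.4375) and 49.4 ± 87.3 for H2-DMb1 (p = 0.3125; SD of the difference, n = 5 in each).

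**Figure D3:**
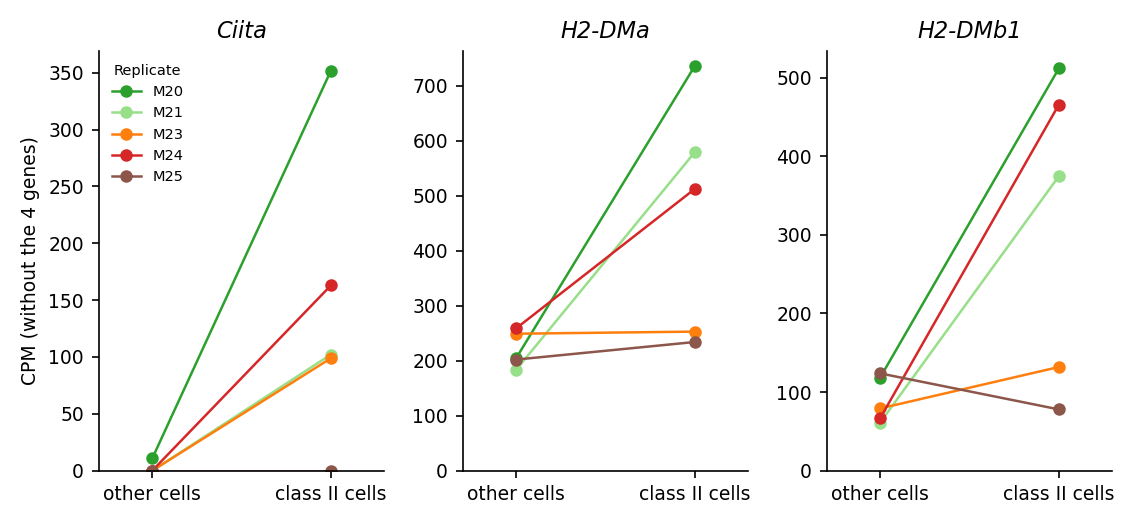
CPM of Ciita, H2-DMa and H2-DMb1 (y, linear axis, totals without the 4 genes that made the classes) in other cells and class II cells of plates 4 and 5. Each line joins the sums of 1 replicate identifier; H2-DMa is higher in class II cells in 5 of 5 identifiers, and M25 has the lowest class II value of each gene.

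Over all genes, 34 of 1592 (2.14%), H2-DMb1 among them, were called between class II and other cells of plates 4 and 5 by edgeR at an adjusted p under 0.05, 30 higher (1.88%) and 4 lower (0.251%). Of the 30, 18 were ribosomal protein genes, of which 74 were tested. Among the rest were Cybb, the catalytic subunit of the phagocyte NADPH oxidase, Apoe, the main lipid carrier of the brain, Fth1, the ferritin heavy chain, and the mitochondrial ribosomal RNA mt-Rnr1. H2-DMb1, Cd52, a leukocyte surface glycoprotein, Tgfbi, a matrix protein, and Rpsa were also among the 30, but 1 to 4 of the 5 sums of other cells reached the filter's level for these genes, so they passed it through the class II sums and their calls are descriptions. The lower genes were the microglial receptors P2ry12 and Gpr34, and Lrba and Plxdc2.

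Cybb had a log2 fold change of 3.04 (SE 0.45). It stood at 959, 613, 187, 722 and 156 CPM in class II cells of M20, M21, M23, M24 and M25, and at 43.1, 402, 33.9, 0 and 19.5 in other cells, so that it was higher in 5 of 5 identifiers. Only 1 of its other sums reached the filter's level, but with no filter on low counts it was called (log2 fold change 2.65, edgeR adjusted p = 0.000106). Apoe rose by 1.36 on the log2 scale (SE 0.31, edgeR adjusted p = 0.00399), from 1774 ± 508 to 5537 ± 4031 CPM (SD, n = 5). It did so in 4 of 5 identifiers, and in M20 it stood at 288 CPM in class II cells against 1584. Cd52 stood at 457 ± 210 CPM in class II cells against 167 ± 57.6 in others (SD, n = 5).

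P2ry12 fell by 1.08 on the log2 scale (SE 0.27, edgeR adjusted p = 0.0126), with class II sums of 1055 to 2879 CPM and other sums of 3704 to 4448, so the 2 sets of sums do not overlap. Gpr34, an orphan lysolipid receptor, fell by 1.02 (SE 0.28, edgeR adjusted p = 0.0260) and was lower in 5 of 5. Lrba, a vesicle trafficking protein, fell by 2.53 with no filter (edgeR adjusted p = 0.0112), from 220 ± 41.4 to 33.3 ± 36.7 CPM (SD, n = 5). Plxdc2, a membrane protein, had a log2 fold change of -0.96 (SE 0.29, edgeR adjusted p = 0.0481). Of the ribosomal genes called, Rps15 had a log2 fold change of 1.42 (SE 0.35) and Rps24 of 1.02 (SE 0.27). mt-Rnr1 was higher by 1.41 (SE 0.28), from 2543 ± 340 to 7751 ± 5986 CPM (SD, n = 5), with 18049 CPM in M21.

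The count rested on few cells and on the tool. Without M24, which held 6 of the 10 highest cells, 2 genes were called, and without M23, M21 or M20 there were 6, 11 and 15. The calls of ribosomal genes went with them, from 18 to 0 without M24 and to 3 without M23, M21 or M20. Without the well of M20 that held 1546 UMIs, 13 genes were called, 10 of them among the 34 and 3 of them ribosomal, and Cybb, Apoe and P2ry12 were still among them. Without the filter on low counts 23 of 16125 genes were called, 14 higher and 9 lower, and the median log2 fold change of all genes moved from -0.01 to -0.37. None of the 23 was ribosomal, and 4 of the 34 were among them, namely Cybb, P2ry12, Gpr34 and Lrba, whereas Apoe (edgeR adjusted p = 0.430) and mt-Rnr1 (edgeR adjusted p = 0.132) were not. With DESeq2, 7 genes were called, 3 of them ribosomal. P2ry12 (adjusted p = 0.0345) passed with DESeq2, whereas Cybb (adjusted p = 0.0797) and Apoe (adjusted p = 0.615) did not.

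Split at the gap, the class II cells gave unequal numbers of calls. Against cells under 5 UMIs, those with at least 50 gave 135 calls of 881 genes by edgeR (15.3%), 84 higher (9.53%) and 51 lower (5.79%), in 4 identifiers with sums of 1, 1, 2 and 6 cells. Cells with 5 to 49 UMIs, in 5 identifiers with sums of 2 to 10 cells, gave 1 call of 1486 genes (0.0673%), the adhesion protein Kirrel3 (log2 fold change 1.69, SE 0.38, edgeR adjusted p = 0.0107), and 56 at an unadjusted p under 0.05. Of the 34 genes, 29 were also called at 50 UMIs (85.3% of the 34 and 21.5% of the 135), which share cells with the first comparison. Of the same 34, 29 could be tested at 5 to 49 UMIs and none was called. The difference between the 2 groups of class II cells was not tested itself.

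At 50 UMIs and above, H2-DMa was called, with a log2 fold change of 1.99 (SE 0.46, edgeR adjusted p = 0.0130). H2-DMb1 was at 764, 869, 237 and 822 CPM in M20, M21, M23 and M24 against 119, 61.2, 79.2 and 66.8 in cells under 5 UMIs, too low there to pass the filter on low counts by those sums alone. Ciita averaged 451 ± 247 CPM in these sums against 2.69 ± 5.39 (SD, n = 4). It was higher in 4 of 4, and the exact sign-flip p of 0.125 is the smallest that 4 pairs allow. Genes that passed this filter only through the highest cells are given as values. Among them was Ccr2, the chemokine receptor by which monocytes leave the blood. Its sums were 382, 4520, 5605 and 3378 CPM in M20, M21, M23 and M24 against 0, 8.74, 11.3 and 0 in cells under 5 UMIs. The sums of the lysosomal protein Plbd1 were 1037, 1565, 237 and 502 CPM against 10.8, 69.9, 0 and 0, and those of the scaffold protein Ahnak were 382, 1912, 237 and 776 against 10.8, 8.74, 22.6 and 8.35. Those of the membrane protein Ms4a6c were 928, 522, 474 and 1735 CPM against 97.0, 61.2, 79.2 and 33.4, and those of Cd52 were 1091, 1217, 1105 and 1187 against 129, 227, 102 and 150. Ccr2, Plbd1, Ahnak and Ms4a6c were singled out after their values had been seen. Of 71 ribosomal protein genes tested, 55 were called higher, against 9.53% of all genes. Among the 55, Rps15 and Rpsa reached the filter's level in 2 and 3 of the 4 sums of cells under 5 UMIs. The count thus holds genes that passed through the highest cells, and it is a description.

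The genes called lower at 50 UMIs included most homeostatic microglial genes, a list written with earlier results known. All 14 of the list were tested, all 14 had negative fold changes and 9 were called lower (5.79% of all genes). The median log2 fold change was -2.29 against -0.25 over all genes. All 4 sums of cells under 5 UMIs reached the filter's level for P2ry12, Tmem119, Sparc, Selplg, Olfml3, Gpr34, Siglech and Sall1. Of the 4 class II sums, 2 did for Siglech, 0 for Sall1 and 3 for the rest of these genes. They passed through the cells where they are high, so the count is a description. The log2 fold change was -3.40 (SE 0.65) for Sparc, a matrix glycoprotein, -2.82 (SE 0.69) for the lectin Siglech, -2.76 (SE 0.51) for the selectin ligand Selplg, -2.75 (SE 0.69) for P2ry12 and -2.39 (SE 0.60) for the membrane protein Tmem119, each past the edgeR threshold. In the comparison at 5 UMIs the list's median was -0.72 against -0.01, with 14 of 14 negative and 2 called lower (0.251% of all genes), and at 5 to 49 UMIs it was -0.26 against -0.05, with 14 of 14 negative and none called.

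**Figure D4:**
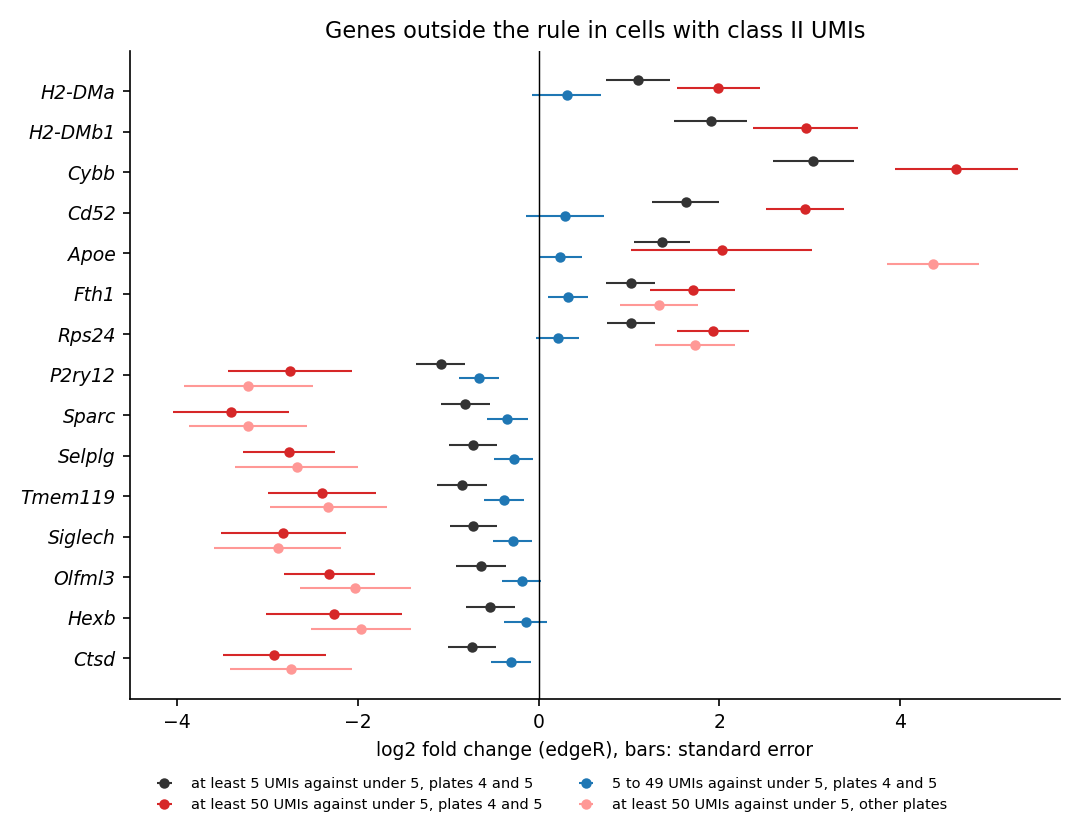
Log2 fold change by edgeR (x) with its standard error (bars) for genes that did not make the classes (y), in 4 comparisons of cells with and without class II UMIs; a gene has no point where it did not pass the filter, and H2-DMb1, Cd52 and Cybb on plates 4 and 5 and Apoe on the other plates passed it with the class II sums needed, so those points are descriptions. The red points (at least 50 UMIs, plates 4 and 5) lie farther from 0 than the blue ones (5 to 49 UMIs) for every gene that has both.

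Markers of other cell types moved with the class II UMIs, and their part in the differences was not tested. The summed microglial markers (9 genes) made up 7887 CPM in cells with at least 50 UMIs, 26577 in those with 5 to 49 and 30797 in those under 5 on plates 4 and 5. The monocyte markers (8 genes) stood at 17214, 605 and 953 CPM in the same order, with 0 to 365 UMIs per cell in the first group. The medians per cell were 59, 2 and 1 UMIs, and a single cell held 353 of the 663 UMIs of the last group. Lyz2, the myeloid lysozyme, gave most of the monocyte marker level (13666, 566 and 701 CPM), and Ccr2 stood at 2846, 19.5 and 5.68 CPM. Plac8, Chil3 and Fn1, further monocyte genes, were at 0 in the highest cells, and S100a4 and S100a6 were in 2 and 3 of the 10. Markers of border-associated macrophages (8 genes) were at 1259, 169 and 79.6 CPM, with Mrc1 at 574, 65.0 and 21.3.

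B cell and T cell markers were not higher in the highest class II cells. B cell markers (7 genes) stood at 319, 474 and 509 CPM, with Ms4a1, Ebf1, Pax5 and Ighd at 0 in the highest cells, and 3 T and NK cell genes were at 0 there. Dendritic cell markers (6 genes) were at 303, 162 and 153 CPM, with Clec9a at 0. S100a9, the neutrophil marker, was at 47.8, 19.5 and 1512 CPM, with 867 of the 957 UMIs of the last group in 1 cell. Markers of astrocytes, oligodendrocytes, neurons and endothelial cells were at 31.9, 111, 47.8 and 15.9 CPM in the highest cells and at 9.95, 166, 38.4 and 39.8 in those under 5 UMIs.

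The 10 highest cells were not alike in these markers. The well with 1546 UMIs (M20, 4w HFD) held 19948 transcripts with 78 Lyz2, 7 Ccr2, 28 Cybb and 11 Ciita UMIs, and neither P2ry12 nor Tmem119. The well with 577 (M21, 4w HFD) held 222 Lyz2, 26 Ccr2, 96 Apoe and 13 Mrc1 UMIs beside 6 of P2ry12. The well with 390 (M23, 7d HFD) held 17 P2ry12 and 9 Tmem119 UMIs together with 40 of Ccr2. The well with 78 (M24, 3d HFD) had 10 P2ry12 and 9 Tmem119 UMIs and no Ccr2, Lyz2 or Mrc1, and it shares its barcode with a well of 216 on plate 4. Of the 10, 7 had Ccr2, 9 had Lyz2, 7 had Mrc1 and 7 had P2ry12. Leaving out cells with at least 3 UMIs of other types' markers kept 6 class II cells in 3 identifiers and 116 testable genes, of which none was called by edgeR and 11 had an unadjusted p under 0.05. It also cut the other cells of M21, M23 and M24 to 4, 7 and 15, from 22, 19 and 30. With so few cells left, the lack of calls cannot be read as the effect of removing other cell types.

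**Figure D5:**
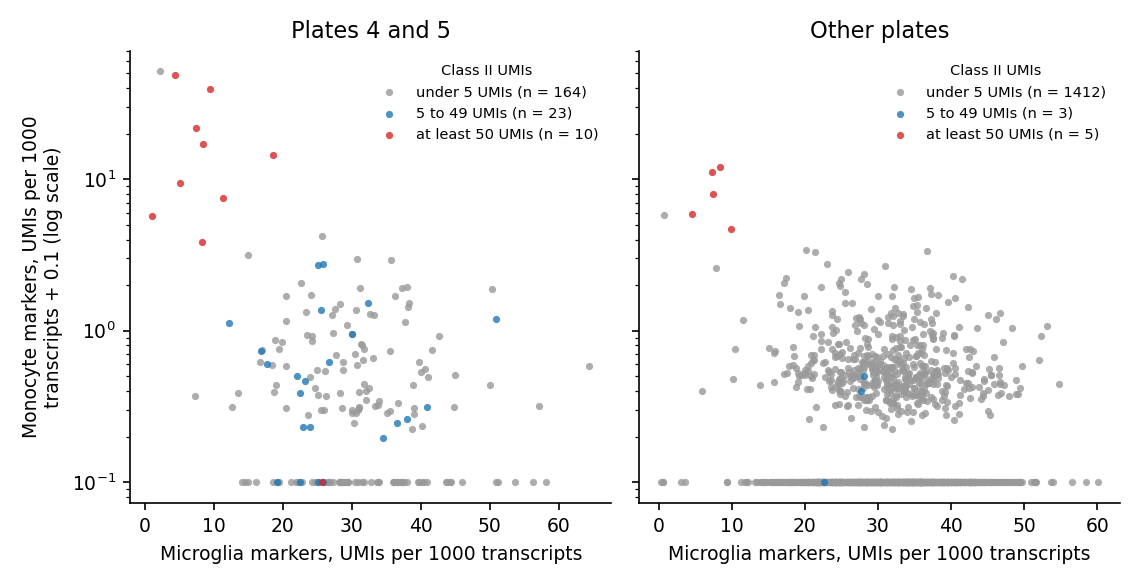
Microglial marker UMIs (x) and monocyte marker UMIs plus 0.1 (y, log axis), both per 1000 transcripts, in each cell of plates 4 and 5 (left) and the other plates (right), coloured by class II UMIs. Of the cells with at least 50 UMIs, 9 of 10 on the left and 5 of 5 on the right hold monocyte marker UMIs, and cells with 5 to 49 UMIs lie among those under 5.

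Little else of the class II pathway could be followed. Of 21 further genes of antigen presentation and its control listed, 15 were in the tables and 6 were tested at 5 UMIs (the proteases Ctss, Ctsl and Lgmn, the thiol reductase Ifi30, the ligase March1 and the factor Creb1), and none was called, with a median log2 fold change of -0.25 against -0.01 over all genes. At 50 UMIs Ctsl and Lgmn, of 4 tested, were called lower (5.79% of all genes), and the list's median was -1.02 against -0.25. MHC class I genes had 4 tested and none called in either comparison, with 4 of 4 positive and medians of 0.50 and 1.12. H2-D1, a class I heavy chain, stood at 2315 CPM in the highest cells of plates 4 and 5, at 689 in those with 5 to 49 UMIs and at 685 in those under 5. On the other plates it stood at 3490 CPM in the 5 highest cells and at 536 in those under 5. B2m, the light chain of class I, had log2 fold changes of 0.02 (SE 0.26) and 0.52 (SE 0.49). The interferon gamma response, which can induce Ciita, had 4 tested, medians of -0.07 and -0.26 and none called. Of the co-stimulation list 2 were tested, of immediate early genes 3 and of inflammation genes 1, with none called, and no type I interferon gene passed the filter. Of the disease-associated microglia list 9 were tested, with Apoe and Fth1 called higher at 5 UMIs (1.88% of all genes) and a median of 0.00. At 50 UMIs, of 8 tested, Fth1 was called higher (9.53% of all genes) and Ctsd, a lysosomal protease, lower (5.79% of all genes). Ctsd passed the filter with the sums of cells under 5 UMIs needed, so its call is a description.

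The 8 class II cells of the other plates allowed the same contrast in cells that had not chosen the genes. In 7 sums of 1 or 2 class II cells, 6 of 230 genes were called by edgeR (2.61%), Apoe higher (0.435%) and Ctsd, Phyhd1, Tmem119, Selplg and Sparc lower (2.17%). Tmem119 had a log2 fold change of -1.66 (SE 0.48). All 7 sums of other cells reached the filter's level for Tmem119, Ctsd, Selplg and Sparc, but only 5, 4, 5 and 6 class II sums did. These genes passed through the cells where they are high, and their calls are descriptions. Apoe met the filter on low counts only with the class II sums included, and its call is a description. Its class II sums were 6643 to 64757 CPM in 5 of the 7 sums, 80.0 in L3 and 0 in M2 of plates 10 to 12, against 36.3 to 4549 in other cells. Of the 34 genes called on plates 4 and 5, 12 could be tested here, 9 had the same direction and 1 was called. With the 5 cells of at least 50 UMIs, in 5 identifiers of control, 1w, 7d and 16w HFD, 31 of 174 genes were called (17.8%), 12 higher (6.9%) and 19 lower (10.9%). All 12 of the 34 that were testable then had the same direction, and 7 were called. All 13 homeostatic genes tested had negative fold changes, 11 of them called (median -2.03 against -0.32 over all genes).

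The 5 cells held 52 to 186 class II UMIs in 1667 to 3157 transcripts, with H2-DMa and H2-DMb1 in all 5. Their Cd74 share of the 4 genes' UMIs was 30.1% and their H2-Aa share 28.4%. Apoe stood at 32129 CPM in them against 872 in cells under 5 UMIs, Lyz2 at 6158 against 209, Ccr2 at 1994 against 7.10 and Mrc1 at 1079 against 14.4. The microglial markers were at 7476 against 32081 CPM. High class II cells with few microglial markers were thus found on plates 7, 9, 12 and 13 as well, in control and HFD cells, at a lower share than on plates 4 and 5. The 3 cells with 5 to 49 UMIs there kept microglial markers at 27039 CPM.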

How the data were processed

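CEL-Seq2 libraries of sorted hypothalamic microglia on 13 plates of 192 wells were used. The authors deposited estimated counts of transcripts per gene and well, not normalized. Per the labels they were made with FastQC, STAR and featureCounts on mm10, and the study's methods add Cutadapt trimming within snakePipes. Every value above 0 was the correction of a whole UMI count for 4096 random tags, within 0.001. From the authors' filtered table of the same counts only the list of 17280 genes was used, to which H2-DMb1 and Ciita were added. The deposited tables hold different gene lists by plate, and Ciita is listed on plates 4 to 13.

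Wells with at least 1500 transcripts were kept, and no doublet caller was run. HFD length and replicate identifier came from the authors' table of wells, and the identifier's relation to a mouse is not given in the sources used here. Estimated counts were summed per identifier and class, without the 4 genes that made the classes, and rounded. They were tested with edgeR 4.0.16 (quasi-likelihood, TMM, filterByExpr, identifier as a block, Benjamini-Hochberg adjusted p under 0.05) in R 4.3.3. The identifier pairs both classes by construction, since each sum comes from cells of the same identifier. Single members were tested on CPM with exact two-sided sign-flip tests in python 3.11.15. At least 2 cells of each class were required per sum, and 1 class II cell on the other plates. Intervals are exact Clopper-Pearson at 95%, and a count of 0 was given the limit of 3 counts. Both cover counting error only. Correlations used log2 of counts per 1000 UMIs plus 1 after thinning to 1500 UMIs.

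Named genes were the 7 members, up to 10 called genes per direction with the smallest p, called genes of the 9 lists, and the 5 genes most alike over cells. Some genes that meet this rule are not reported here. Genes named beyond it are said to be so or belong to a list. The members, the lists and the 11 marker lists were chosen with earlier results of these data known. DESeq2 1.42.0, other thresholds, depth minimums, scalings and each identifier left out were tried, and the fitting code was tested on simulated data.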

Additional observations from a re-analysis of the deposited data

Results flagged for a closer look

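Of 26 checks for a replicate far from its group, of which chance flags about 1 in 20, 4 stood out. M12, a control of plate 13, had 35.6 CPM of the 4 class II genes, where the other controls of that plate were at 0 (n = 4). M10 (1d HFD, plate 6) was at 0 CPM, where the others of that diet had 12.7 to 19.5 (n = 6). M6 (16w HFD, plates 10 to 12) was at 517 CPM, where the others had 0 to 80.4 (n = 5), and it held a cell with 52 class II UMIs. The log2 difference in Rpsa between class II and other cells was 3.40 in M20 and 0.57 to 1.32 in the others (n = 5).

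Wells under 1500 transcripts, which entered no comparison, also held class II UMIs. Those of plate 5 carried 3750 CPM of the 4 genes, and 2978 without barcode 17, whose well had 32 UMIs. Those of plate 4 carried 2176 CPM, spread over 44 of 74 wells with at most 6 UMIs each. Those of plate 7 carried 4790 CPM, of which 117 UMIs were in 1 control well, and 244 without it. The shallow wells of the other plates ranged from 0 to 505 CPM.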

How the results depend on the processing

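Of the 34 genes called between class II and other cells of plates 4 and 5, the count became 6 with a threshold of 3 UMIs, 5 with 3 UMIs of the genes other than Cd74, and 6 after thinning. It became 74 with sums per identifier and plate, 3 on plate 4 alone and 62 on plate 5 alone, 0 without cells with markers of other types (11 at an unadjusted p under 0.05), and 7 with DESeq2. Without the pairing of classes by identifier (no replicate block) it was 55. Leaving out an identifier gave 2 (M24) to 29 (M25) calls. Chosen after the data were seen, at least 50 UMIs gave 135, the same without the plate 5 well of 78 UMIs gave 146, 5 to 49 UMIs gave 1, and the first comparison without the well with most transcripts gave 13, of which 10 were among the 34. The calls of Cd52, Rpsa, Rps15, Rps24, Plxdc2 and Fth1 were among those lost. A threshold of 10 UMIs (40), other minimums of transcripts (24 and 44) and another scaling (36) stayed within 1.5 times. On the other plates 6 calls became 1 with 3 UMIs and 31 with at least 50; requiring 2 class II cells per sum could not be run there.

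The share of class II cells on plates 4 and 5 became 40.6% with 3 UMIs and 32.5% with 3 UMIs without Cd74. It fell to 7.61% with 10 UMIs and to 7.11% after thinning to 1500 UMIs. With sums per identifier and plate, where identifiers enter more than once, the CPM differences were 151 for Ciita (exact sign-flip p = 0.03125), 294 for H2-DMa (exact sign-flip p = 0.015625) and 256 for H2-DMb1. H2-DMb1 also passed at 3 UMIs, with a difference of 116 CPM (exact sign-flip p = 0.015625). Leaving out an identifier gave 91.0 to 176 CPM for Ciita, 171 to 303 for H2-DMa and 178 to 290 for H2-DMb1, where 4 pairs cannot reach the threshold. Over 17 named genes, 413 further values held 265 with direction and call kept, 144 with the call lost, 4 with a call gained and 0 reversed. The causes were not tested. The small sums, some of them 1 cell, and the few UMIs of Ciita limit all of these values.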

Other observations

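The well with 1546 class II UMIs, which also had the most transcripts of all cells, held 26 UMIs of Xist, the RNA of the inactive X chromosome, although the labels give male mice. In no other cell did Xist exceed 2 UMIs, and 22 cells had any. The comparison of class II with other cells is given above with and without this well.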
